A study of Homo sapiens with 12 samples.

Results

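Heterogeneous nuclear ribonucleoproteins (hnRNPs) and serine/arginine-rich (SR) proteins are the main families of RNA-binding proteins that steer the choice of splice sites. They were described here through 38 protein-coding genes, of 58302 genes listed: 26 with a symbol that starts with HNRNP and 12 named SRSF with a number. Membership was decided by symbol and biotype alone. The libraries came from DLD1, an established human colorectal cancer line grown to passage 5. Cells carried a short hairpin against NAT10 (shNAT10) or a control hairpin (shNC). NAT10 is an acetyltransferase that makes N4-acetylcytidine (ac4C) from cytidine in RNA. For each hairpin there were 3 input libraries of fragmented RNA and 3 libraries immunoprecipitated with an antibody against ac4C, 12 in all. Gene levels were deposited for the 6 input libraries, as fragments scaled to gene length and library size (FPKM), and ac4C was covered by the authors' table of differential peaks. Gene levels in the immunoprecipitated libraries were not analysed here. The sources used here do not say whether replicates were separate cultures, so p-values measure the spread between these libraries, which may be technical.

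As background, hnRNPs coat nascent transcripts through RNA recognition or KH domains, and many of them mask splice sites or exons. SR proteins bind exonic enhancers through RNA recognition motifs and draw in the spliceosome through a tail of arginine and serine repeats. Members of both families often compete for the same transcripts, and many SR genes limit their own level through an exon that, when included, sends the mRNA to decay.

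Depth differed between the hairpins. Whole fragments on genes, recovered from the FPKM values, numbered 1224097 to 1303818 in the libraries labelled shNAT10 and 2636810 to 2758067 in shNC. The targeted gene went against the label in 2 of the 3 libraries labelled shNAT10. NAT10 (ENSG00000135372) was at FPKM 0, 28.1 and 31.4 in the libraries labelled shNAT10, and at 1.24, 3.95 and 2.89 in shNC. Replicate 1 of the libraries labelled shNAT10 was thus below every shNC library, and replicates 2 and 3 were above all of them. On the log2(FPKM + 1) scale its difference, shNAT10 minus shNC, was 1.48 (SE 1.86; limma adjusted p = 0.754; exact two-sided permutation p = 0.4, the smallest possible being 0.1). It ran from 0.62 without shNAT10 replicate 3 to 3.13 without shNAT10 replicate 1, and was 0.82 with a pseudocount of 0.1, 0.44 with voom and -1.81 without shNAT10 replicates 2 and 3. Each direction below is that of the label. Of 10 colon epithelium markers, 7 to 8 were above 0 in the libraries labelled shNAT10 and 8 to 9 in shNC, with keratin KRT8 the highest. Their summed level did not overlap, at 8125 to 8583 FPKM in the libraries labelled shNAT10 and 5053 to 5385 FPKM in shNC, whereas the adhesion molecule EPCAM was at 38.3 to 128 FPKM in the libraries labelled shNAT10 and 226 to 369.7 FPKM in shNC. The part of this in members' levels was not tested, and KRT20 and CEACAM5 were at or near 0 throughout. The summed level of 15 markers of other cell types was 4.06, 0.413 and 140 FPKM in the libraries labelled shNAT10 and 0.130 to 6.97 FPKM in shNC. The high value, in replicate 3, came mainly from vimentin (VIM, 78.0 FPKM) and the muscle myosin MYH7 (56.6 FPKM).

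A level above 0 was found for 31 of the 38 members in some library, and for 22 in every library. The 7 listed at 0 throughout were HNRNPCL1, HNRNPCL2, HNRNPCL3 and HNRNPCL4 (near-identical copies related to HNRNPC), HNRNPH2 (a copy of HNRNPH1 on chromosome X), the readthrough HNRNPUL2-BSCL2, and SRSF12. Reads shared by near-identical copies can be lost or divided in counting, so a level of 0 for such a copy is uncertain. Pseudogenes named after members were low in sum beside the members. In sum they reached 0.747, 6.53 and 10.5 FPKM in the libraries labelled shNAT10 and 28.6, 2.5 and 3.02 FPKM in shNC. In shNC replicate 1 most of that sum came from HNRNPA1P36, which was at 0 in every other library. Its level there was slightly above that of HNRNPA1 itself. Whether reads of HNRNPA1 were divided with this pseudogene was not tested, so the HNRNPA1 level in shNC replicate 1 is less certain.

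The summed level of each family overlapped between the groups. For hnRNP genes it was 763, 630.0 and 826 FPKM in the libraries labelled shNAT10 (739.7 ± 100.0, SD, n = 3) and 535, 861 and 555 FPKM in shNC (650.2 ± 183, SD, n = 3). For SR genes it was 256, 134 and 224 FPKM in the libraries labelled shNAT10 (205 ± 63.1, SD, n = 3) and 148, 255 and 325 FPKM in shNC (242 ± 89.2, SD, n = 3). No test was made of these sums. The member with the highest level changed from library to library. HNRNPM led in shNAT10 replicate 1 (133 FPKM), HNRNPK in replicate 2 (132 FPKM) and HNRNPA1 in replicate 3 (222 FPKM). In shNC the leader was HNRNPK in replicates 1 and 2 (122 and 152 FPKM) and HNRNPM in replicate 3 (124 FPKM).

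**Figure D1:**
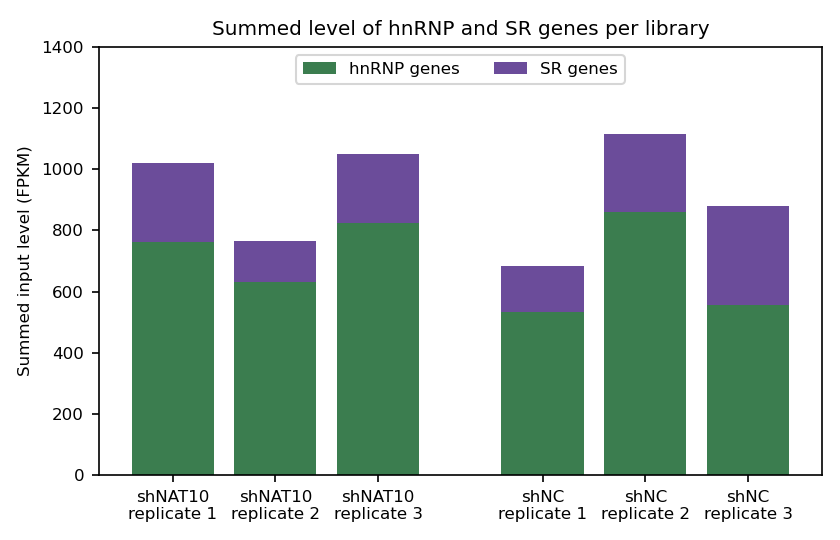
Summed input level (FPKM) of hnRNP and SR genes in each library, stacked from 0. Totals range from 765 to 1049.9 FPKM in the libraries labelled shNAT10 and from 682 to 1115 FPKM in shNC.

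HNRNPK was the steadiest of the abundant members. It (ENSG00000165119, chr9:83968083-83980615 in RefSeq's GRCh38.p14) encodes a KH-domain protein that binds C-rich RNA and acts from transcription to translation. It had 92.0, 132 and 129 FPKM in the libraries labelled shNAT10, and 122, 152 and 75.4 FPKM in shNC. The highest library was 2.02 times the lowest, and the groups overlapped (log2 difference 0.05, 95% interval -2.02 to 2.12, limma adjusted p = 0.992). These levels rested on 654 to 1009 fragments in the libraries labelled shNAT10 and 1321 to 2561 in shNC. HNRNPK's own SD on the log2(FPKM + 1) scale was 0.29 in the libraries labelled shNAT10 and 0.51 in shNC (n = 3 each). The interval was set mostly by the spread of all genes at like level. With an interval this wide, equal levels were not shown. HNRNPA2B1, a core particle protein that also sorts RNA into vesicles, had 37.6, 72.8 and 55.5 FPKM in the libraries labelled shNAT10 and 65.3, 36.1 and 17.7 FPKM in shNC. HNRNPF, which binds runs of G, had 46.9, 95.4 and 93.7 FPKM in the libraries labelled shNAT10 and 20.2, 129 and 54.4 FPKM in shNC. HNRNPU, the scaffold attachment factor of the nuclear matrix, was lower, at 12.9, 25.0 and 4.56 FPKM in the libraries labelled shNAT10 and 13.1, 19.9 and 5.99 FPKM in shNC. In each of these genes the groups overlapped.

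**Figure D2:**
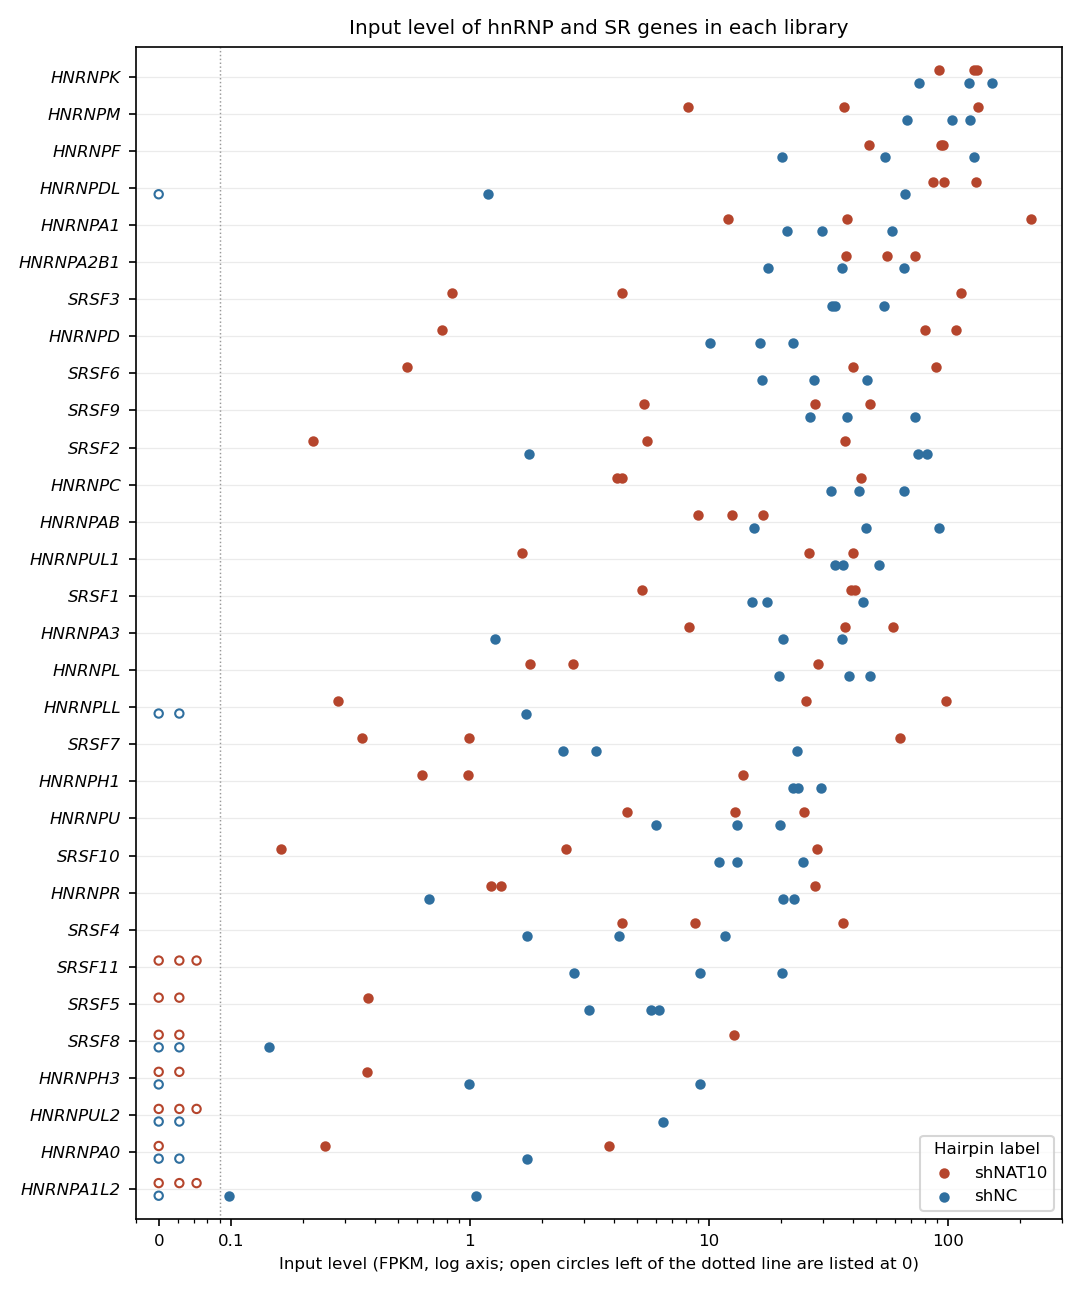
Input level (FPKM, log axis) of the 31 members with a value above 0, 1 row per gene from most to least abundant, with shNAT10 points above shNC points. Open circles are libraries listed at 0. HNRNPK points lie between 75.4 and 152 FPKM, while SRSF2 points run from 0.221 to 82.1 FPKM.

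Several SR genes varied more between replicates than these. SRSF2, an enhancer-binding factor that also acts in transcription elongation, had 37.0, 0.221 and 5.53 FPKM in the libraries labelled shNAT10 and 1.76, 75.3 and 82.1 FPKM in shNC. The fragments behind these values were 155, 1 and 20 in the libraries labelled shNAT10 and 18, 746 and 849 in shNC. Replicates thus lay far apart under either hairpin. SRSF7, a shuttling SR protein with a zinc knuckle, had 0.356, 0.990 and 62.7 FPKM in the libraries labelled shNAT10 and 3.36, 23.4 and 2.45 FPKM in shNC. SRSF3, the smallest SR protein and an mRNA export adaptor, had 4.35, 0.844 and 113 FPKM in the libraries labelled shNAT10 and 33.8, 32.8 and 54.3 FPKM in shNC. Here the shNC libraries were close together and those labelled shNAT10 lay on both sides of them. SRSF6 showed the opposite outlying library, with 89.5, 40.3 and 0.545 FPKM in the libraries labelled shNAT10 and 27.5, 16.6 and 45.9 FPKM in shNC. SRSF1, the founding member known as ASF/SF2, had 39.2, 41.0 and 5.25 FPKM in the libraries labelled shNAT10 and 15.2, 17.5 and 44.1 FPKM in shNC. The highest values of SRSF3, SRSF7, HNRNPA0, HNRNPA1 and HNRNPA3 all fell in shNAT10 replicate 3, the library with vimentin and MYH7. The lowest values of SRSF1, SRSF6, SRSF10, HNRNPC, HNRNPM and HNRNPU fell in that library as well. What part that library's other features have in these values was not tested.

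Values of 0 in members were set beside those in coding genes above the same mean level. Of 24 members averaging 10 FPKM or more over the 6 libraries, 22 were above 0 in every library (91.7%), against 49.1% of the 2974 protein-coding genes at that level. At 20 FPKM or more the shares were 88.9% of 18 members and 66.8% of 1464 genes. A library at 0 beside another of the same group at 10 FPKM or more occurred in 2 members of the 26 that reached 10 FPKM, HNRNPDL and SRSF8, against 58.6% of protein-coding genes that did so. With a cut on mean level the shares were 4.17% of members and 43.8% of genes averaging 10 FPKM or more, and 5.56% and 30.3% at 20 FPKM or more. The median level was 31.9 FPKM in members and 19.8 FPKM in genes at the first cut, and 36.45 and 35.96 FPKM at the second. Levels were not matched gene by gene, and no test was made. The median SD of log2(FPKM + 1) within groups was 1.39 for the 29 members averaging 1 FPKM or more, and 1.74 for all coding genes so filtered. Their levels differed, with medians of 27.0 and 6.59 FPKM. At 10 FPKM or more the median SD was 1.46 in members and 2.18 in coding genes, and at 20 FPKM or more 1.46 and 1.96. Among the 29 members the SD ran from 0.36 in SRSF5 and 0.42 in HNRNPK to 2.65 in SRSF2. Across these 29 genes, log2 levels of libraries of the same group correlated at 0.31 to 0.70 and those of different groups at 0.24 to 0.63, as a description over genes that share libraries.

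**Figure D3:**
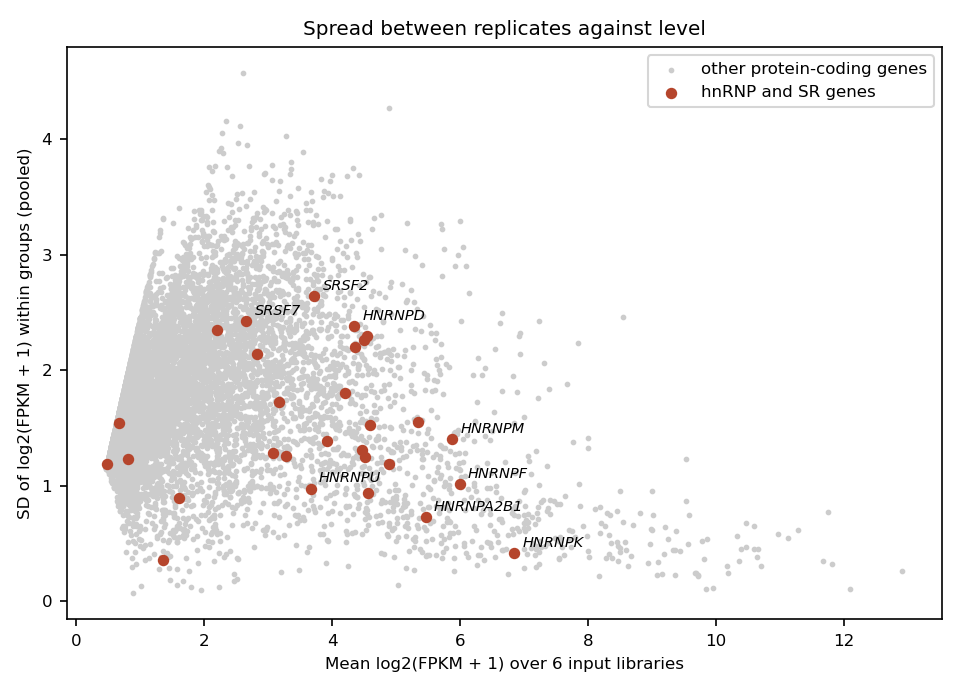
SD of log2(FPKM + 1) within groups, pooled over both hairpins, against mean log2(FPKM + 1) over the 6 input libraries. Each point is a protein-coding gene averaging 1 FPKM or more, and the 29 members are in red, from SRSF5 (0.36) to SRSF2 (2.65).

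The main comparison asked which members differed in input level between the hairpins. None of the 29 tested members passed the limma test at an adjusted p under 0.05. Of all 10517 tested genes 0.19% passed, 0.0856% with shNAT10 higher and 0.105% with it lower, and none of these 20 was protein-coding. Only HNRNPDL had an unadjusted p under 0.05, with shNAT10 higher, against 3.7% of all tested genes in either direction and 1.38% with shNAT10 higher. The voom test on recovered fragments called 1 of the 10517 genes and 0 members. The log2 difference was below 0 for 19 members and above 0 for 10, with a median of -0.83, where all tested genes had a median of -0.49. Of the 10517 tested genes, 6179 were below 0 and 4338 above 0. By family the median was -0.42 over 18 hnRNP genes and -1.05 over 11 SR genes, of which 9 were below 0. Standard errors of members ran from 1.05 to 1.89 on the log2 scale, set mostly by the spread of all genes at like level. With these, differences of several-fold could not be told from 0. Without shNAT10 replicates 2 and 3, the libraries high in NAT10, the median was -0.22 over 28 members, against -1.12 over all genes. Without shNC replicate 2 it was -0.30, against -0.40 over all genes. In bulk libraries, fewer cells with an RNA and less of it per cell cannot be told apart.

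**Figure D4:**
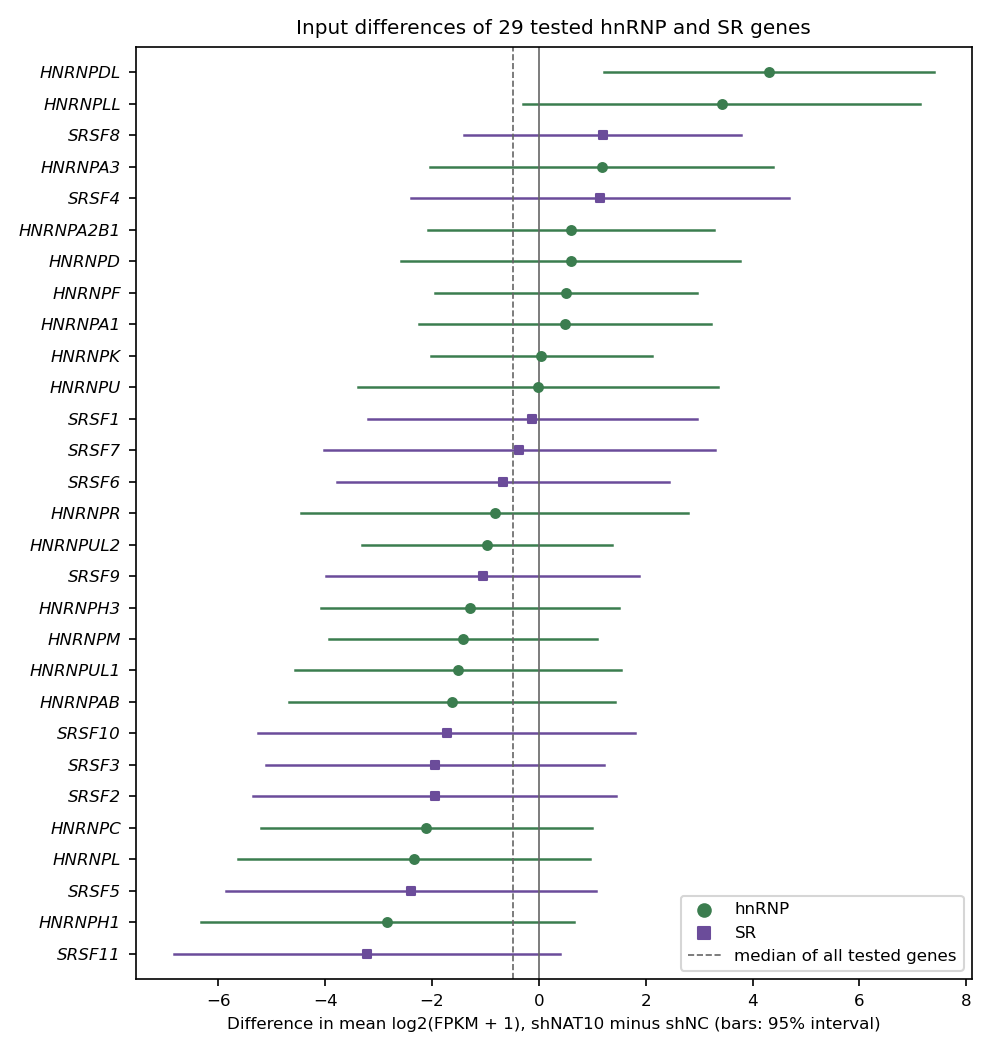
Difference in mean log2(FPKM + 1), shNAT10 minus shNC, for the 29 tested members (circles hnRNP, squares SR; bars are 95% intervals from limma). Differences run from -3.22 for SRSF11 to 4.30 for HNRNPDL. The dashed line is the median of all tested genes, -0.49.

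In 4 of the 29 tested members the groups did not overlap, 1 with shNAT10 higher and 3 with it lower. Of all tested genes, 9.61% had groups that did not overlap, 2.89% with shNAT10 higher and 6.72% with it lower. The member with shNAT10 higher was HNRNPDL (ENSG00000152795, chr4:82422564-82430462), a paralogue of the AU-rich element binder HNRNPD. It had 132, 86.9 and 96.0 FPKM in the libraries labelled shNAT10, and 1.19, 66.0 and 0 FPKM in shNC. Its SD on the log2(FPKM + 1) scale was 0.31 in the libraries labelled shNAT10 and 3.23 in shNC (n = 3 each). Its 3 shNAT10 libraries were close together, while 1 shNC library was near them and the others were at or near 0. Fragments numbered 1001, 713 and 630 in the libraries labelled shNAT10 and 22, 1188 and 0 in shNC. The log2 difference was 4.30 (SE 1.57, 95% interval 1.21 to 7.40), with a limma p of 0.00658 before Benjamini-Hochberg adjustment over all genes and 0.72 after it. Without 1 replicate it ran from 3.10 to 6.14, and without shNAT10 replicates 2 and 3 it was 4.65.

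HNRNPH1, SRSF11 and SRSF5 had the lower shNAT10 levels, and none of them passed (limma adjusted p = 0.754 each). HNRNPH1 (ENSG00000169045, chr5:179614178-179634784), which binds G runs and acts as a splicing switch, had 0.987, 0.634 and 13.9 FPKM in the libraries labelled shNAT10, and 22.6, 23.5 and 29.4 FPKM in shNC. The shNC values differed little (4.70 ± 0.20 on the log2 scale, SD, n = 3), and the spread lay in the libraries labelled shNAT10. The log2 difference was -2.83 (SE 1.77), or -3.71 without shNAT10 replicates 2 and 3. SRSF11 (ENSG00000116754, chr1:70205696-70253052), an SR-related factor also called p54, had 0 in every library labelled shNAT10 and 9.17, 20.2 and 2.72 FPKM in shNC. Its fragments in shNC numbered 263, 562 and 79. The fitted log2 difference was -3.22, and -6.34 with a pseudocount of 0.1 in place of 1, so its size rests on that constant. SRSF5 (ENSG00000100650, chr14:69767142-69772005), an SR protein induced by insulin in rat liver, had 0, 0.374 and 0 FPKM in the libraries labelled shNAT10 and 6.18, 5.74 and 3.16 FPKM in shNC. Its levels were low, with each shNC library above each one labelled shNAT10 (log2 difference -2.40, SE 1.76). With a pseudocount of 0.1 that difference was -4.87. SRSF5's own SD on the log2(FPKM + 1) scale was 0.26 in the libraries labelled shNAT10 and 0.43 in shNC (n = 3 each). The SE was set mostly by the spread of all genes at like level.

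Among the remaining hnRNP genes, HNRNPC, HNRNPL and HNRNPAB had negative differences with groups that overlapped. HNRNPC, which binds uridine tracts and keeps Alu elements from being spliced in, had 4.33, 43.2 and 4.11 FPKM in the libraries labelled shNAT10 and 65.7, 32.4 and 42.5 FPKM in shNC. Only shNAT10 replicate 2 reached the shNC range (log2 difference -2.11, SE 1.57, limma adjusted p = 0.754). HNRNPL, a binder of CA repeats, had 1.79, 28.6 and 2.69 FPKM in the libraries labelled shNAT10 and 19.7, 38.5 and 47.1 FPKM in shNC. The same library, replicate 2, was again the one within the shNC range. HNRNPAB, an A/B type protein of RNA transport, had 16.8, 9.03 and 12.5 FPKM in the libraries labelled shNAT10 and 45.5, 91.4 and 15.5 FPKM in shNC. HNRNPUL1, a relative of HNRNPU that acts in DNA repair, had 1.65, 26.1 and 39.9 FPKM in the libraries labelled shNAT10 and 33.6, 36.3 and 51.6 FPKM in shNC. HNRNPM, which binds GU-rich RNA, had 133, 36.7 and 8.18 FPKM in the libraries labelled shNAT10 and 67.6, 104 and 124 FPKM in shNC. The library that stood apart differed from gene to gene, as shNAT10 replicate 1 was the lowest in HNRNPUL1 and shNAT10 replicate 3 the lowest in HNRNPM.

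HNRNPLL, a regulator of CD45 splicing in lymphocytes, had 97.8, 25.5 and 0.282 FPKM in the libraries labelled shNAT10 and 0, 0 and 1.72 FPKM in shNC. It had the next largest positive difference after HNRNPDL, with groups that overlapped (log2 difference 3.42, SE 1.89, limma adjusted p = 0.754). That difference was 2.06 without shNAT10 replicate 1, 5.19 without shNAT10 replicate 3, 5.23 with a pseudocount of 0.1 and 6.38 with voom. HNRNPA1, the best known splicing repressor of the family, had 12.0, 37.9 and 222 FPKM in the libraries labelled shNAT10 and 21.2, 58.4 and 29.7 FPKM in shNC. HNRNPD, also called AUF1, had 108, 0.765 and 79.9 FPKM in the libraries labelled shNAT10 and 10.1, 22.5 and 16.3 FPKM in shNC. Both genes had an outlying library among those labelled shNAT10, high for HNRNPA1 and low for HNRNPD. HNRNPA3, an A/B type protein, had 37.0, 8.30 and 58.7 FPKM in the libraries labelled shNAT10 and 1.27, 20.4 and 36.0 FPKM in shNC. HNRNPR, a relative of SYNCRIP, had 27.9, 1.23 and 1.35 FPKM in the libraries labelled shNAT10 and 22.7, 20.4 and 0.673 FPKM in shNC. In HNRNPR a library near 1 FPKM occurred under both hairpins.

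The remaining SR genes overlapped as well. SRSF9, a close relative of SRSF1, had 47.1, 5.35 and 27.9 FPKM in the libraries labelled shNAT10 and 37.9, 26.4 and 72.5 FPKM in shNC. SRSF10, which represses splicing when dephosphorylated in heat shock and mitosis, had 2.52, 28.4 and 0.162 FPKM in the libraries labelled shNAT10 and 11, 24.9 and 13.1 FPKM in shNC. SRSF4, a large SR protein, had 36.3, 4.35 and 8.73 FPKM in the libraries labelled shNAT10 and 1.73, 11.7 and 4.20 FPKM in shNC. Of the SR genes tested with all 6 libraries, only SRSF4 and SRSF8 had a log2 difference above 0 (1.14 and 1.2). SRSF4 was at 0.35 without shNAT10 replicate 1 and 0.62 without shNC replicate 1. Leaving out shNAT10 replicate 3 took SRSF1 to 0.79 and SRSF6 to 1.09, and leaving out shNAT10 replicate 1 took SRSF7 to 0.65. SRSF8, an intronless copy related to SRSF2, was above 0 in 2 libraries, at 12.8 FPKM in shNAT10 replicate 2 and at 0.145 FPKM in shNC replicate 3. The rare hnRNP members were low or seldom above 0. HNRNPH3, a relative of HNRNPF and HNRNPH1, had 0, 0.373 and 0 FPKM in the libraries labelled shNAT10 and 0.990, 9.18 and 0 FPKM in shNC. HNRNPUL2, a paralogue of HNRNPUL1, was listed at 0 in the libraries labelled shNAT10 and at 0, 0 and 6.45 FPKM in shNC. HNRNPA0 and HNRNPA1L2, a copy related to HNRNPA1, lay below the filter on low values. HNRNPA0 had 0.247, 0 and 3.83 FPKM in the libraries labelled shNAT10 and 1.73, 0 and 0 FPKM in shNC. HNRNPA1L2 was listed at 0 in the libraries labelled shNAT10 and reached 1.07 FPKM in shNC.

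Other parts of the splicing machinery had no member past the limma test. The lists comprised 41 core spliceosome genes, 23 further splicing regulators and 18 SR kinases and SR-related genes, with 37, 20 and 17 tested. Their median log2 differences were -0.43, -0.44 and -0.82. In the core list, BUD31, an early spliceosome factor and its most abundant member, had 87.9, 3.09 and 40.1 FPKM in the libraries labelled shNAT10 and 39.0, 190 and 93.7 FPKM in shNC. PCBP1, known as hnRNP E1, led the regulators, with 136, 117 and 67.7 FPKM in the libraries labelled shNAT10 and 112, 39.1 and 189 FPKM in shNC. SRRM2, a scaffold of nuclear speckles where SR proteins gather, led the SR-related list, with 2.60, 40.1 and 93.0 FPKM in the libraries labelled shNAT10 and 65.8, 30.7 and 53.0 FPKM in shNC. In BUD31, PCBP1 and SRRM2 the groups overlapped. SNRPB2 of the core and PNN of the SR-related list had an unadjusted limma p under 0.05 (0.00839 and 0.0311). Of all tested genes 3.7% did, in either direction. SNRPB2 had 0, 2.05 and 2.24 FPKM in the libraries labelled shNAT10 and 46.0, 41.8 and 76.2 FPKM in shNC. PNN had 0.685, 10.3 and 0 FPKM in the libraries labelled shNAT10 and 34.1, 46.7 and 31.7 FPKM in shNC. Their log2 differences were -4.65 and -3.83 (limma adjusted p = 0.754 each). A deposited peak, described next, was listed for 10 core, 8 regulator and 3 SR-related genes in the authors' deposited table. These were 25%, 36.4% and 16.7% of those above 0 in the input, beside 15.4% of protein-coding genes. Among genes averaging 10 FPKM or more the shares were 36.0%, 35.7% and 37.5%, beside 25.9% of protein-coding genes and 41.7% of members. The lowest log10 FDR in that deposited table belonged to SF1 (-54.9), SF3A1 (-46.6) and EFTUD2 (-32.4) of the core, to KHDRBS1 (-23.0), PCBP2 (-20.3) and PTBP3 (-7.24) of the regulators, and to SRRM2 (-96.4), SRRM1 (-5.71) and SRPK1 (-5.51) of the SR-related genes.

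The second set of data asked which members carried an ac4C peak that differed between the hairpins. The authors' deposited table listed 14 such peaks in 13 members, 8 hnRNP and 5 SR genes. The table held only peaks past the authors' own test, so a member without a row is not shown to lack ac4C. Of the 31 members above 0 in the input, 12 (38.7%) had a peak in the authors' deposited table, against 15.4% of protein-coding genes above 0. Among genes averaging 10 FPKM or more, the shares were 10 of 24 members (41.7%) and 25.9% of protein-coding genes. The member share was thus less far above the rest with this cut, and was not tested. Levels still differed there, with a median of 31.9 FPKM in members and 19.8 FPKM in protein-coding genes. The log2 change in the authors' deposited table has no stated numerator, so signs are given without saying which hairpin was higher.

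**Figure D5:**
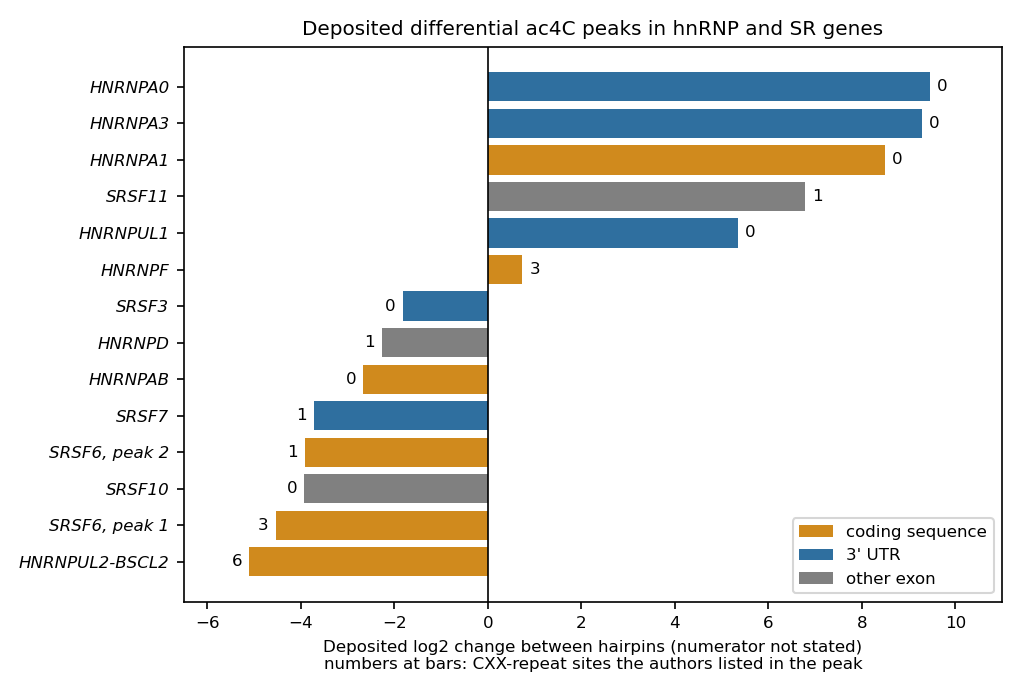
Log2 change between hairpins in the authors' deposited table for the 14 peaks in members, coloured by annotated region, with the number of CXX-repeat sites listed in each peak. Values run from -5.10 in HNRNPUL2-BSCL2 to 9.46 in HNRNPA0, and 5 of the 6 SR peaks are negative.

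Of the 6 peaks in SR genes, 5 had a negative change in the authors' deposited table, in SRSF3, SRSF6, SRSF7 and SRSF10. Of the 8 in hnRNP genes, 3 were negative and 5 positive. Among all 2364 peaks of that deposited list, 61.7% were negative. The peaks lay in coding sequence (6), the 3' UTR (5) and other exons (3), and none was annotated to the 5' UTR. SRSF6, also an SR protein of alternative exon choice, was the only member with 2 peaks. They lay at chr20:43458137-43459179 and chr20:43460848-43461027 (GRCh38, plus strand), both in coding sequence, with changes of -4.54 and -3.91 in the authors' deposited table (FDR 6.76e-06 and 2.63e-07). The first began near the 5' end of the gene and spanned 3 blocks, and the second was 1 block of 180 nt. Both changes had the same sign, with fold enrichments of 3.32 and 3.47 in the authors' deposited table, whose denominator is not stated.

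SRSF7 had a peak annotated to the 3' UTR at chr2:38748069-38748670 (minus strand), with a change of -3.72 and an FDR of 0.00603 in the authors' deposited table. Its centre lay 39.6% of the way along the gene from the 5' end, well before the gene's last base. SRSF10 had one at chr1:23972012-23975212 (minus strand, other exon, -3.93, FDR 0.0148), by the authors' deposited table. SRSF3 had one at chr6:36602012-36602400 (plus strand, 3' UTR, -1.82), with an FDR of 0.0302 in the authors' deposited table, the weakest of the member peaks. The positive SR peak was in SRSF11, at chr1:70239449-70244791 (plus strand, other exon), with a change of 6.78 and an FDR of 3.98e-26 in the authors' deposited table. SRSF11 was itself listed at 0 in all 3 shNAT10 inputs. The sources used here do not say how input level entered the authors' differential test.

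Among the 14 member peaks of the authors' deposited table, the highest positive changes were in A-type hnRNP genes, while the whole table reached 14.1. HNRNPA0, an intronless member that binds AU-rich elements, had 9.46 at chr5:137752247-137752397 (minus strand, 3' UTR). HNRNPA3 had 9.29 at chr2:177220345-177220524 (plus strand, 3' UTR), and HNRNPA1 had 8.50 at chr12:54282475-54282841 (plus strand, coding sequence over 3 blocks that total 151 nt), again from the authors' deposited table. The deposited FDR was 0.0195 for HNRNPA3, by far the weakest of the 3 in the authors' deposited table, although its fold enrichment, 1250, was the highest of any member peak. HNRNPA0 had the smallest fold of the member peaks, 3.11, and was near 0 in most input libraries. HNRNPUL1 had a change of 5.36 in the authors' deposited table, in the 3' UTR, 398 nt before the end of the gene (chr19:41307120-41307389, plus strand).

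HNRNPF had the smallest change of the member peaks, 0.743 in the authors' deposited table, at chr10:43386870-43387198 (minus strand, coding sequence), with an FDR of 6.31e-24. HNRNPD had a change of -2.26 in the authors' deposited table and a fold of 142 at chr4:82353906-82354355 (minus strand, other exon). HNRNPAB had -2.66 at chr5:178205891-178206850 (plus strand, coding sequence, FDR 0.017) in the authors' deposited table. The most negative member peak was assigned to the readthrough HNRNPUL2-BSCL2, at chr11:62691114-62692445 (minus strand), with a change of -5.10 in the authors' deposited table. It lay within the span of BSCL2, the seipin gene of lipid droplets, and 20185 nt outside that of HNRNPUL2, so it counts among hnRNP genes by its symbol alone. HNRNPUL2-BSCL2 and BSCL2 were listed at 0 in all 6 input libraries.

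The authors counted sites of a repeated CXX motif in each peak of the deposited table. At least 1 site was listed in 7 of the 14 member peaks (50%), against 62.6% of all deposited peaks. By sign, 5 of the 8 negative and 2 of the 6 positive member peaks had a site in the authors' deposited table, beside 988 of 1459 negative and 492 of 905 positive peaks over all of it, and no test was made. HNRNPUL2-BSCL2 had 6, HNRNPF and the first SRSF6 peak 3 each, and HNRNPD, SRSF7, SRSF11 and the second SRSF6 peak 1 each. The 3 A-type peaks with the largest positive changes had none. Listed sites lay inside the listed blocks for all plus-strand peaks and all peaks of 1 block in the authors' deposited table. On the minus strand with several blocks only 41.4% of 827 sites did, and 92.9% did when the blocks were counted from the other end. Among members this touches HNRNPUL2-BSCL2, SRSF7 and SRSF10, for which only the outer span of the peak is given here.

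Input level and peaks were set side by side for the members. The 6 tested members with negative peaks in the authors' deposited table had a median input log2 difference of -1.15, and the 5 with positive peaks one of 0.49. The ranges overlapped, at -1.95 to 0.60 for negative and -3.22 to 1.18 for positive peaks. The 18 tested members without a peak had a median of -0.90. HNRNPDL (4.30), HNRNPLL (3.42) and HNRNPH1 (-2.83) had no deposited peak, and were further from 0 on the log2 scale than every tested member with a peak, except that SRSF11 (-3.22) was further from 0 than HNRNPH1.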

How the data were processed

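DLD1 input RNA was read as 150 bp pairs after fragmentation to 100-200 nt from 100 µg of RNA. FPKM per gene were made and deposited by the authors, and per the submitters' processing notes cutadapt 2.5, HISAT2 2.1.0 and HOMER 4.10.4 were used with GRCh38 and GRCm38 named as builds; the counting and peak-calling steps are not stated. The deposited peak table gave a fold enrichment (a ratio), a log2 change, a log10 FDR and a count of motif sites per peak, all computed by the authors and per the file headers. Columns named NC matched shNC titles by number, and those named sh matched shNAT10 by elimination; 0 per-sample columns were left unmapped.

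Log2(FPKM + 1) was compared with limma 3.58.1 (R 4.3.3), 3 against 3 libraries, over the 10517 genes with a mean FPKM of 1 or more, with Benjamini-Hochberg adjustment and a threshold of 0.05. The prior had 212.6 degrees of freedom, so it dominated each gene's variance. A gene's own SD is given for HNRNPDL, HNRNPH1, HNRNPK, SRSF5 and the extremes of spread. Whole fragments were recovered from the FPKM for 15013 of 15014 genes above 0, within 0.001 fragments, as the smallest whole numbers that share a gene length (a common factor can be lost), and were used for depth and for voom as an alternative. Their number limits precision, and floors and intervals of counting error do not cover spread between libraries. Gene positions came from RefSeq GRCh38.p14. Same-numbered libraries did not deviate together (correlations of 0.00, -0.02 and 0.01), so numbers were not taken as pairs. The fit was tested on simulated data. The families and lists to describe were chosen with earlier results of these data known, and membership then followed symbol and biotype. All members were described. From the other lists, with none past the test, the most abundant gene and up to 3 with a deposited FDR under 0.001 were named, lowest first. Genes of these lists with an unadjusted limma p under 0.05 were named as well. The alternatives were another pseudocount, filter, scaling, test or variance prior, the replicate block, stricter peak limits and left-out libraries.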

Additional observations from a re-analysis of the deposited data

How the results depend on the processing

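No member passed the limma test under any alternative tried, and 0 to 7 had an unadjusted p under 0.05. The 7 came without shNAT10 replicates 2 and 3, which leaves 1 library labelled shNAT10 that is assumed to vary as shNC does. Over 427 values of tested members under alternatives, 394 kept their direction and 33 in 13 members did not. With quantile normalization HNRNPU was 0.61, SRSF7 0.63, HNRNPK -0.23 and SRSF1 0.12 on the log2 scale. HNRNPK was -0.22 on the TPM scale and -0.16 with voom. Without shNAT10 replicates 2 and 3 the differences were 1.61 for HNRNPR, 0.13 for HNRNPU, -0.28 for HNRNPK, -0.16 for HNRNPF, -1.40 for HNRNPA1, 0.17 for SRSF9, 0.75 for SRSF1, 0.55 for SRSF2, 1.66 for SRSF6, 0.48 for HNRNPM and -1.81 for NAT10. Leaving out 1 library at a time gave -0.61 to 1.44 for HNRNPA1, -0.028 to 1.98 for HNRNPA3, -0.47 to 2.51 for HNRNPD, -0.16 to 1.15 for HNRNPF, -0.23 to 0.27 for HNRNPK, -0.53 to 0.58 for HNRNPU, -0.59 to 0.79 for SRSF1, -1.845 to 1.09 for SRSF6 and -2.125 to 0.65 for SRSF7. The cause of these turns was not tested. The member median was -1.23 with voom, -0.22 without shNAT10 replicates 2 and 3 and -0.76 to -0.30 without 1 library. The median of all genes, -0.49, was -0.08 after quantile normalization and -0.68 on the TPM scale, where the member median was -0.57 and -1.0. The genes past the test numbered 20, and 0 without the filter on low values (340 with an unadjusted p under 0.05 by limma), 10 at a mean FPKM of 5 or more, 1 with voom, 0 without shNAT10 replicates 2 and 3 (1139 unadjusted by limma) and 1 to 34 without 1 library. The count was 1 without any one shNC library and 12 without shNAT10 replicate 1. With the replicate block 21 genes and 0 members passed; in this balanced design the block cannot move a difference. Members with a deposited peak numbered 13, with 9 at a deposited FDR under 0.01 and 7 at a deposited fold of 5 or more. Members at 0 beside a library of the same group above a limit numbered 7 at 1 FPKM and 1 at 50 FPKM, against 2 at 10 FPKM. Depth in the libraries labelled shNAT10 was under that of every shNC library, so levels near 0 are less certain there.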
